A study of Arabidopsis thaliana with 16 samples.

Results

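RCPG (AT1G65570, probe set 264682_at) and PASPA3 (AT4G04460, probe set 255345_at) were followed across 5 sorted populations of root cells of Arabidopsis thaliana. They are 2 genes of the 13356 that single-gene probe sets of the array name. Both were chosen by locus, with earlier results of these data known. Each is measured by 1 probe set. RefSeq lists 1 protein for RCPG and 2 for PASPA3, and the probe set gives 1 value for both products of PASPA3. Transcript levels were measured on 16 Affymetrix arrays, 1 per sample, after ecotype Columbia seedlings had grown for 6 days on standard medium and for 24 h on medium in which 0.3 mM ferrozine, a chelator of ferrous iron, took the place of iron. Roots were digested to protoplasts (cells freed of their walls), and cells that carried green fluorescent protein (GFP) were sorted by flow cytometry, with 1 reporter line for each population. The populations were the columella of the root cap (line PET111, n = 3 arrays), the epidermis with the lateral root cap (WER::GFP, n = 4), the stele, or central cylinder (WOL::GFP, n = 3), the cortex (the line named CORTEX, n = 3) and the endodermis with the quiescent center (SCR::GFP, n = 3). The second and the last are called epidermis and endodermis below. All 16 arrays came from iron-deficient roots. Iron-sufficient arrays were not used here, so the values are levels in starved roots and do not measure how either gene responds to iron. WER::GFP marks epidermis and lateral root cap together, so the levels of these cells cannot be told apart within that population. The array value also does not separate a larger share of expressing cells from more RNA in each of them.

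The root cap covers the growing root tip. Its columella lies at the centre, and its lateral part flanks the epidermis and ends where the root begins to elongate. Cap cells are replaced all the time: outer layers are shed by separation from their neighbours, and cells of the lateral root cap die by a developmental program before or as they are lost. Polygalacturonases cut homogalacturonan, the pectin that glues plant cells together. RCPG, the root cap polygalacturonase, acts in the separation of cap cells and lies downstream of the NAC transcription factors BEARSKIN1 and BEARSKIN2. PASPA3 encodes an aspartic protease whose promoter marks cells that prepare for developmental cell death, in the lateral root cap and in xylem vessels. Xylem lies in the stele.

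Signals are in arbitrary units, with the same trimmed mean on each array, and array medians lay between 50.0 and 81.1. Precision is limited by having 3 or 4 arrays per population. Across 16224 tested probe sets, arrays of 1 population correlated at r = 0.894 to 0.981. Epidermis replicate 4 had the lowest correlations with its own population, 0.894 to 0.938, and differences that involve epidermis are therefore also given without it for RCPG, PASPA3 and the cell death genes. The mean ratio of 3' to 5' signals of 3 control transcripts, which grows as amplified RNA gets shorter, ran from 2.85 to 4.18 on the log2 scale and was highest in endodermis replicate 3. Of the marker genes listed for each population, the annotation named 1 of 5 for columella, 3 of 7 for epidermis, 3 of 3 for cortex and none for endodermis or stele, so the last 2 labels were not checked. The starch gene APL4 had signals of 238.8 to 464.4 in columella arrays and at most 41.4 elsewhere, and the pectin methylesterase gene PMEPCRF 2063 to 3097 in cortex arrays and at most 296.5 elsewhere. The cortex marker AED3 (AT1G09750) had 532.6 to 1409 in cortex arrays and at most 69.4 elsewhere. CO2 (AT1G62500), the remaining marker of the cortex list, was at 42.6 or less on all 16 arrays, cortex included. Of the epidermal markers, TRY had its highest mean in epidermis, at 35.2 to 91.3, but reached 56.1 in endodermis. It exceeded columella and cortex (adjusted p = 0.0045 and 0.032) but did not pass against stele or endodermis (adjusted p = 0.099 and 0.10). Without epidermis replicate 4 the last 2 passed (adjusted p = 0.044 and 0.049), and that against endodermis also passed without endodermis replicate 3. The call over cortex was lost without epidermis replicate 1, epidermis replicate 2, cortex replicate 1 or cortex replicate 3. The root hair expansin genes EXPA7 and EXPA18 reached 512.3 and 556.7 in epidermis, 242.3 and 512.7 in stele and 752.2 and 542.1 in cortex. Neither differed between epidermis and stele (adjusted p = 0.36 and 0.83) or between epidermis and cortex (adjusted p = 0.96 and 0.80) beyond the spread between arrays.

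RCPG was highest in the columella, next in the epidermis with the lateral root cap, and low in the 3 inner populations. Its signals were 6916, 7792 and 7878 in the columella arrays, 1802, 817.0, 1691 and 3737 in epidermis replicates 1 to 4, 21.6, 96.7 and 72.3 in stele, 147.9, 33.3 and 225.4 in cortex, and 208.1, 177.1 and 772.2 in endodermis. Every columella array lay above every other array, and every epidermis array lay above every array of stele, cortex and endodermis. The share of all probe sets with arrays separated in this way was not counted. The margin over the inner populations was narrow at 1 place, between epidermis replicate 2 and endodermis replicate 3. The means were 7529 ± 532.5 in columella (SD, n = 3), 2012 ± 1232 in epidermis (SD, n = 4), 63.5 ± 38.3 in stele, 135.5 ± 96.7 in cortex and 385.8 ± 335.0 in endodermis (SD, n = 3 each).

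PASPA3 had another order: it was high in stele and epidermis, intermediate in columella and low in endodermis and cortex. Its signals were 716.0, 850.8 and 548.2 in columella, 1244, 725.1, 1004 and 3401 in epidermis replicates 1 to 4, 1434, 1874 and 2069 in stele, 134.9, 172.0 and 172.4 in cortex, and 241.5, 295.9 and 276.6 in endodermis. The highest array of all was epidermis replicate 4. The other 3 epidermis arrays lay below all stele arrays, and epidermis replicate 2 lay within the range of the columella arrays. All arrays of columella, epidermis and stele lay above all arrays of cortex and endodermis. How many of all probe sets were separated in this way was not counted. The means were 705.0 ± 151.6 in columella (SD, n = 3), 1594 ± 1224 in epidermis (SD, n = 4), 1793 ± 325.2 in stele, 159.8 ± 21.5 in cortex and 271.3 ± 27.6 in endodermis (SD, n = 3 each).

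**Figure D1:**
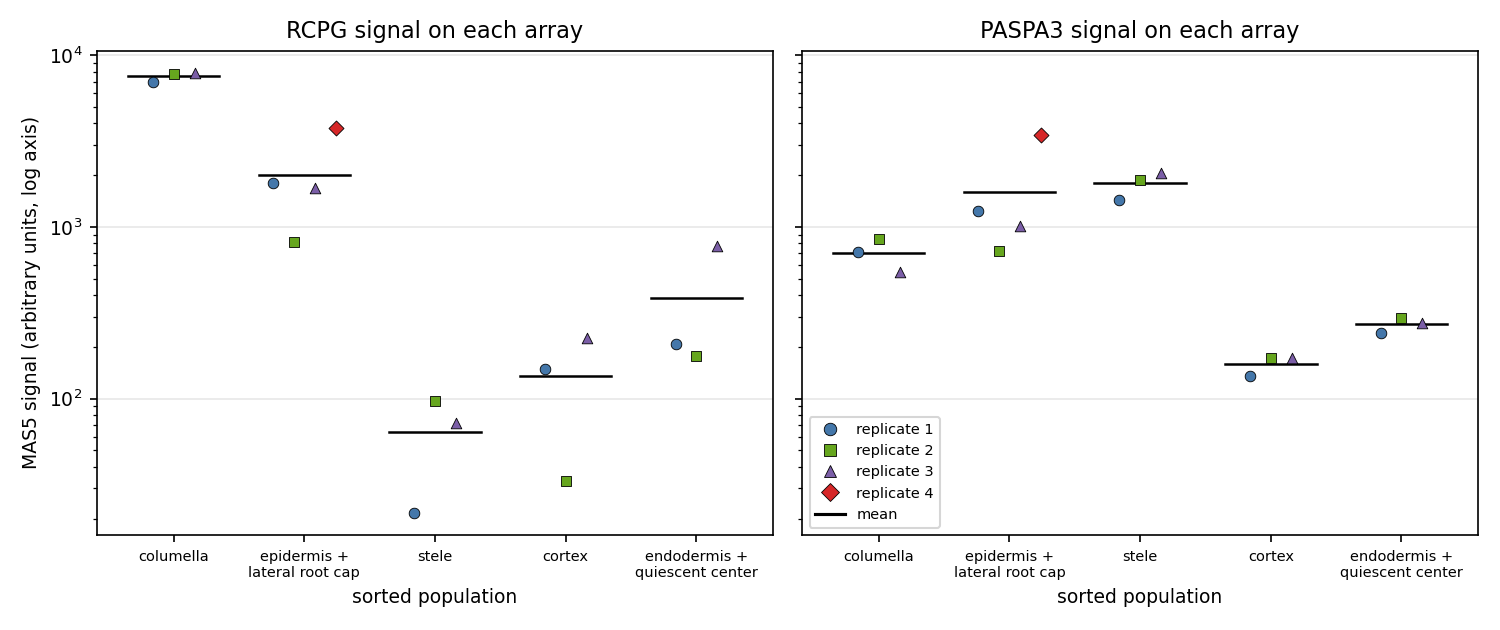
Signals of RCPG (left) and PASPA3 (right) on each of 16 arrays, on a log axis, by population; symbols are replicates and horizontal lines are means (n = 4 in epidermis, n = 3 elsewhere). RCPG separated columella and epidermis from the other populations, PASPA3 was also high in stele, and epidermis replicate 4 was the highest epidermis array for both genes.

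By the moderated F test of limma, the 5 populations differed for both genes (adjusted p = 1.6e-07 for RCPG and 9.8e-07 for PASPA3), as did 82.1% of all probe sets tested. Each gene passed in 8 of 10 pairs of populations. Differences below are those of mean log2(signal + 10.17), where 10.17 is the 20th percentile of the table and shrinks folds of low signals. In each pair, the share of all probe sets called in the same direction is given beside the gene. The median of all probe sets was itself shifted by more than 0.1 in 3 pairs, with 0.14 for columella minus cortex, 0.13 for stele minus cortex and -0.21 for cortex minus endodermis.

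RCPG in columella exceeded its level in all other populations. The difference to epidermis was 2.10 (SE 0.59), a 4.28-fold difference on that scale (adjusted p = 0.0078; 23.8% of probe sets were called higher in columella than in epidermis). It was 6.85 (SE 0.63) to stele, 115.1-fold (adjusted p = 2.2e-07; 19.0% called). The difference to cortex was 6.00 (adjusted p = 5.8e-07; 27.3% called) and that to endodermis 4.57 (adjusted p = 1.6e-05; 20.9% called). Single arrays moved both by more than 1.5-fold: without cortex replicate 2 the first was 5.29 (adjusted p = 3.7e-06), and without endodermis replicate 3 the other was 5.22 (adjusted p = 1.0e-05). Stele replicate 1 and cortex replicate 2 lay under 38.03, the 40th percentile of the table, and the files hold no detection calls, so these folds rest on signals close to the low end of the arrays.

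RCPG in epidermis was also above the inner populations. It exceeded stele by 4.75 (SE 0.59, adjusted p = 4.9e-06; 14.1% called), cortex by 3.90 (adjusted p = 5.1e-05; 26.4% called) and endodermis by 2.47 (adjusted p = 0.0021; 25.0% called). Without cortex replicate 2 the difference to cortex was 3.19 (adjusted p = 0.00050), and without endodermis replicate 3 that to endodermis was 3.12 (adjusted p = 0.00059). Without epidermis replicate 4, the epidermis array with the highest signal, the differences to stele, cortex and endodermis were 4.38, 3.54 and 2.11 and all passed (largest adjusted p = 0.0055). Leaving out that array widened the difference of columella to epidermis to 2.46 (adjusted p = 0.0021). Among the inner populations the order was stele, cortex, endodermis from low to high. RCPG was lower in stele than in endodermis by -2.28 (SE 0.63, adjusted p = 0.012; 14.6% called lower), a call lost without endodermis replicate 3 (-1.63, adjusted p = 0.078) or without stele replicate 1 (-1.76, adjusted p = 0.065). Neighbours in this order did not differ beyond their spread: stele minus cortex was -0.84 (95% interval -2.18 to 0.49, adjusted p = 0.32) and cortex minus endodermis -1.43 (95% interval -2.77 to -0.10, adjusted p = 0.074). The interval for cortex minus endodermis, which is not adjusted for the number of probe sets, leaves out 0, and the pair passed without cortex replicate 3 (-1.94, adjusted p = 0.038), with array weights and with a replicate block.

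Of all 16224 probe sets, 225 (1.39%) showed 7 of the 8 calls of RCPG, with columella above each other population and epidermis above stele, cortex and endodermis. The remaining call, stele below endodermis, was not part of this count.

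PASPA3 in stele exceeded cortex by 3.40 (SE 0.38), a 10.5-fold difference (adjusted p = 5.4e-06; 20.9% called), and endodermis by 2.67 (adjusted p = 8.7e-05; 15.4% called). In epidermis it exceeded cortex by 2.98 (SE 0.36, adjusted p = 4.1e-06; 26.4% called) and endodermis by 2.25 (adjusted p = 4.8e-05; 25.0% called). Without epidermis replicate 4 these differences were 2.53 (adjusted p = 1.4e-07) and 1.80 (adjusted p = 4.3e-06). In columella it exceeded cortex by 2.06 (SE 0.38, adjusted p = 0.00023; 27.3% called) and endodermis by 1.33 (adjusted p = 0.0091; 20.9% called). These 6 calls were shown together by 109 probe sets (0.672%). PASPA3 was lower in columella than in stele by -1.34 (SE 0.38, adjusted p = 0.0086; 24.1% called lower). RCPG differed between the same populations in the opposite direction; a test of the 2 genes against each other was not made. Cortex minus endodermis was -0.73 for PASPA3 (95% interval -1.53 to 0.07, adjusted p = 0.13), and it passed without epidermis replicate 4 (adjusted p = 0.014), with an SE of 0.23 in place of 0.38.

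For PASPA3, which of columella and stele epidermis differed from changed with epidermis replicate 4, while both differences kept their sign without it. With all arrays, PASPA3 was lower in columella than in epidermis by -0.92 (SE 0.36, adjusted p = 0.042; 21.8% called lower), and epidermis minus stele was -0.42 (95% interval -1.16 to 0.33, adjusted p = 0.40), which did not pass. Without that array, columella minus epidermis was -0.47 (SE 0.23, adjusted p = 0.095) and did not pass, while PASPA3 was lower in epidermis than in stele by -0.87 (SE 0.23, adjusted p = 0.0056; 22.1% of 16192 probe sets called lower in that fit). The call between columella and epidermis was also lost when any 1 of 5 other arrays was left out, among them columella replicate 3 (-0.76, adjusted p = 0.15). The plot of differences sets both fits side by side.

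**Figure D2:**
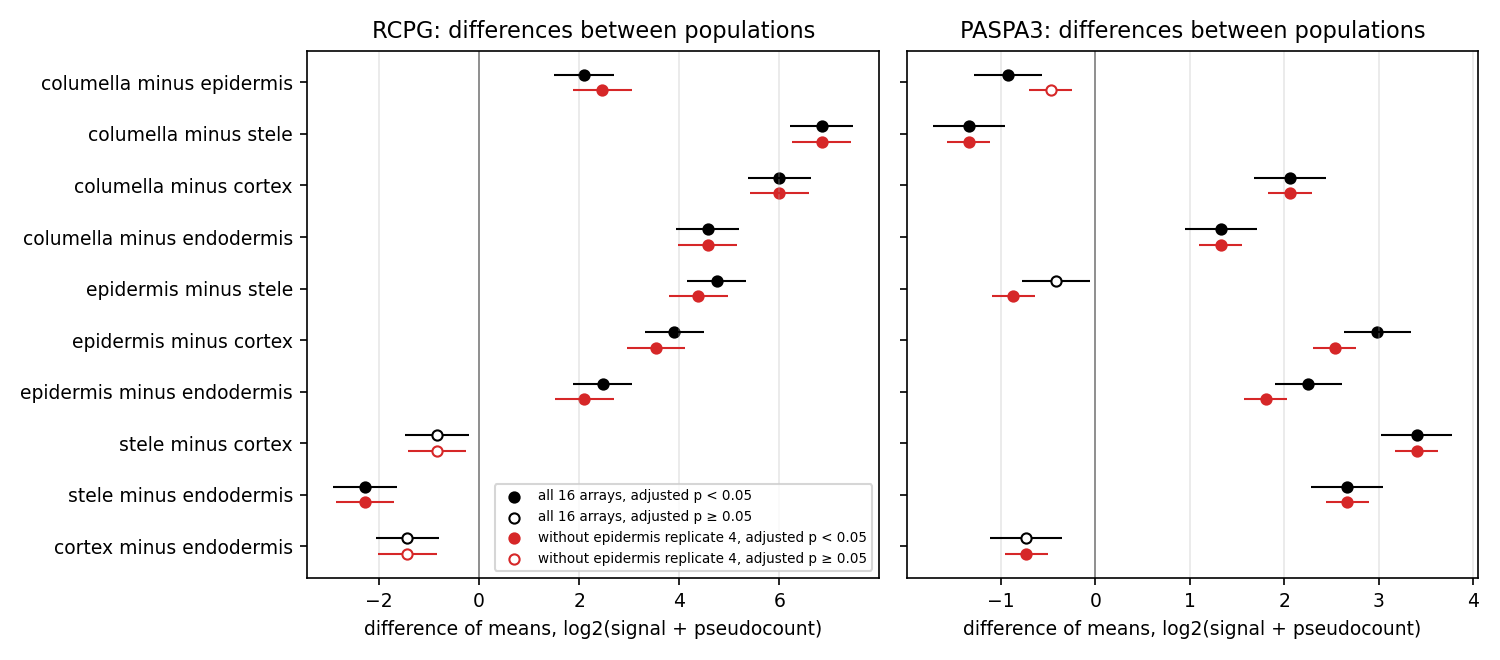
Differences between populations for RCPG (left) and PASPA3 (right) in log2(signal + pseudocount), as estimates with SE bars; the horizontal scales of the panels differ. Black marks are the fit to all 16 arrays (n = 3 per population, n = 4 in epidermis), red marks the fit without epidermis replicate 4, and filled marks passed an adjusted p of 0.05. For PASPA3, columella minus epidermis and epidermis minus stele changed sides of the threshold with that array.

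The 4 epidermis arrays had the same order for both genes, with replicate 4 highest, then replicates 1 and 3, and replicate 2 lowest. The signals of RCPG spanned 817.0 to 3737 and those of PASPA3 725.1 to 3401. This order of arrays was seen in 11.8% of all probe sets tested, and replicate 4 was the highest epidermis array in 35.7%. Against the median of the other 3 arrays, replicate 4 was higher by 1.14 (log2) for RCPG and by 1.75 for PASPA3. Rises at least as large were seen in 6.2% and 1.4% of probe sets. Probe sets enriched in other populations differed in this array too. In it, the median of 742 cortex-enriched probe sets lay 0.48 (log2) above the other epidermis arrays, that of 338 stele-enriched ones 0.29 above, that of 730 endodermis-enriched ones 0.22 above and that of 1296 columella-enriched ones 0.04 above, while that of 418 epidermis-enriched ones was -0.44. Enriched means higher in 1 population than in each other one by the pairwise tests, so these sets were chosen on the same arrays. Of the 3 cortex markers, AED3 was at 61.8 in replicate 4, against 20.1 to 26.8 in the other epidermis arrays. PMEPCRF was at 96.1 there, against 82.4, 32.1 and 37.1 in replicates 1 to 3, and CO2 was at 6.64, against 1.87 to 9.46, so 2 of the 3 were highest in replicate 4 and 1 lay within the range of the others. The part of other cells in the level of both genes in replicate 4 was not tested.

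In endodermis, RCPG was 772.2 in replicate 3, against 208.1 and 177.1 in replicates 1 and 2, and PASPA3 did not move with it, at 276.6 against 241.5 and 295.9. Against the median of the other 2 arrays, replicate 3 was higher by 1.95 (log2) for RCPG, a rise reached by 0.148% of probe sets. The columella-enriched probe sets at large were 0.06 higher in that array, and all probe sets 0.02 higher. The columella marker APL4 was at 27.9 there, against 15.3 and 5.78 in the other endodermis arrays and 238.8 or more in columella. Replicate 3 also had the highest ratio of 3' to 5' control signals. The part of these in the level of RCPG was not tested.

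Genes listed beside PASPA3 as markers of developmental cell death did not share 1 pattern. The annotation named 4 of the 8 listed genes, and all 4, PASPA3 included, passed the F test, which 82.1% of all probe sets did. SCPL48 (AT3G45010), a serine carboxypeptidase-like gene, had signals of 9224 to 10406 in columella, 1506 to 3334 in epidermis, 1655 to 3042 in stele, 567.3 to 697.3 in cortex and 1775 to 2692 in endodermis. In columella it exceeded stele, the next population, by 2.07 (SE 0.26, adjusted p = 7.0e-06), and epidermis by 2.13 (adjusted p = 2.9e-06), or by 2.31 without epidermis replicate 4 (adjusted p = 5.6e-07). DMP4 (AT4G18425), a membrane protein gene, was at 909.9 to 1831 in columella, 62.0 to 333.0 in epidermis, 355.3 to 794.9 in stele, 23.1 to 99.4 in cortex and 116.5 to 582.2 in endodermis. In columella it exceeded epidermis by 3.36 (SE 0.57, adjusted p = 0.00015), or by 3.89 without epidermis replicate 4 (adjusted p = 7.2e-06). Its difference to stele, the next population, did not pass (0.91, adjusted p = 0.25). EXI1 (AT2G14095) had its highest mean in epidermis, at 170.7 to 651.1, against 116.4 to 195.1 in columella, 43.0 to 147.6 in stele, 1.71 to 53.0 in cortex and 24.4 to 78.4 in endodermis. It exceeded stele by 1.67 (adjusted p = 0.026), a call lost without epidermis replicate 4 (1.29, adjusted p = 0.0595), epidermis replicate 1, stele replicate 1 or stele replicate 3. Epidermis minus columella did not pass with all arrays (0.83, adjusted p = 0.23) or without epidermis replicate 4 (0.45, adjusted p = 0.50). All 4 genes had their lowest mean in cortex, and the share of all probe sets lowest there was not counted. Epidermis replicate 4 was the highest epidermis array for all 4, as it was for 35.7% of all probe sets tested. DMP4 was at 333.0 there and at 62.0 to 72.2 in replicates 1 to 3. The xylem list, with 15 genes, had no gene that the annotation named, so xylem was not checked in stele.

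PASPA1, PASPA2 and PASPA3 encode the aspartic proteases of Arabidopsis that carry a plant-specific insert. Their highest means were not all in 1 population. PASPA1 (AT1G11910, APA1 in RefSeq) was high everywhere, at 6982 ± 1180 in columella (SD, n = 3), 3908 ± 518.2 in epidermis (SD, n = 4), 4418 ± 946.6 in stele, 6385 ± 764.0 in cortex and 4054 ± 27.3 in endodermis (SD, n = 3 each). In columella it exceeded epidermis by 0.83 (SE 0.17, adjusted p = 0.00088), and columella minus cortex was 0.12 (adjusted p = 0.61). PASPA2 (AT1G62290) was low, at 66.5 to 171.5 in columella and 56.5 to 90.3 in epidermis, and at 3.72 to 17.3 in stele, 5.82 to 19.7 in cortex and 4.50 to 7.44 in endodermis. Its columella level exceeded that in stele by 2.53 (SE 0.36, adjusted p = 2.4e-05), and columella minus epidermis did not pass (0.45, adjusted p = 0.29). PASPA3 was the 1 gene of these 3 with its highest mean in stele. Its epidermis minus stele difference did not pass with all arrays (-0.42, adjusted p = 0.40) and passed without epidermis replicate 4.

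**Figure D3:**
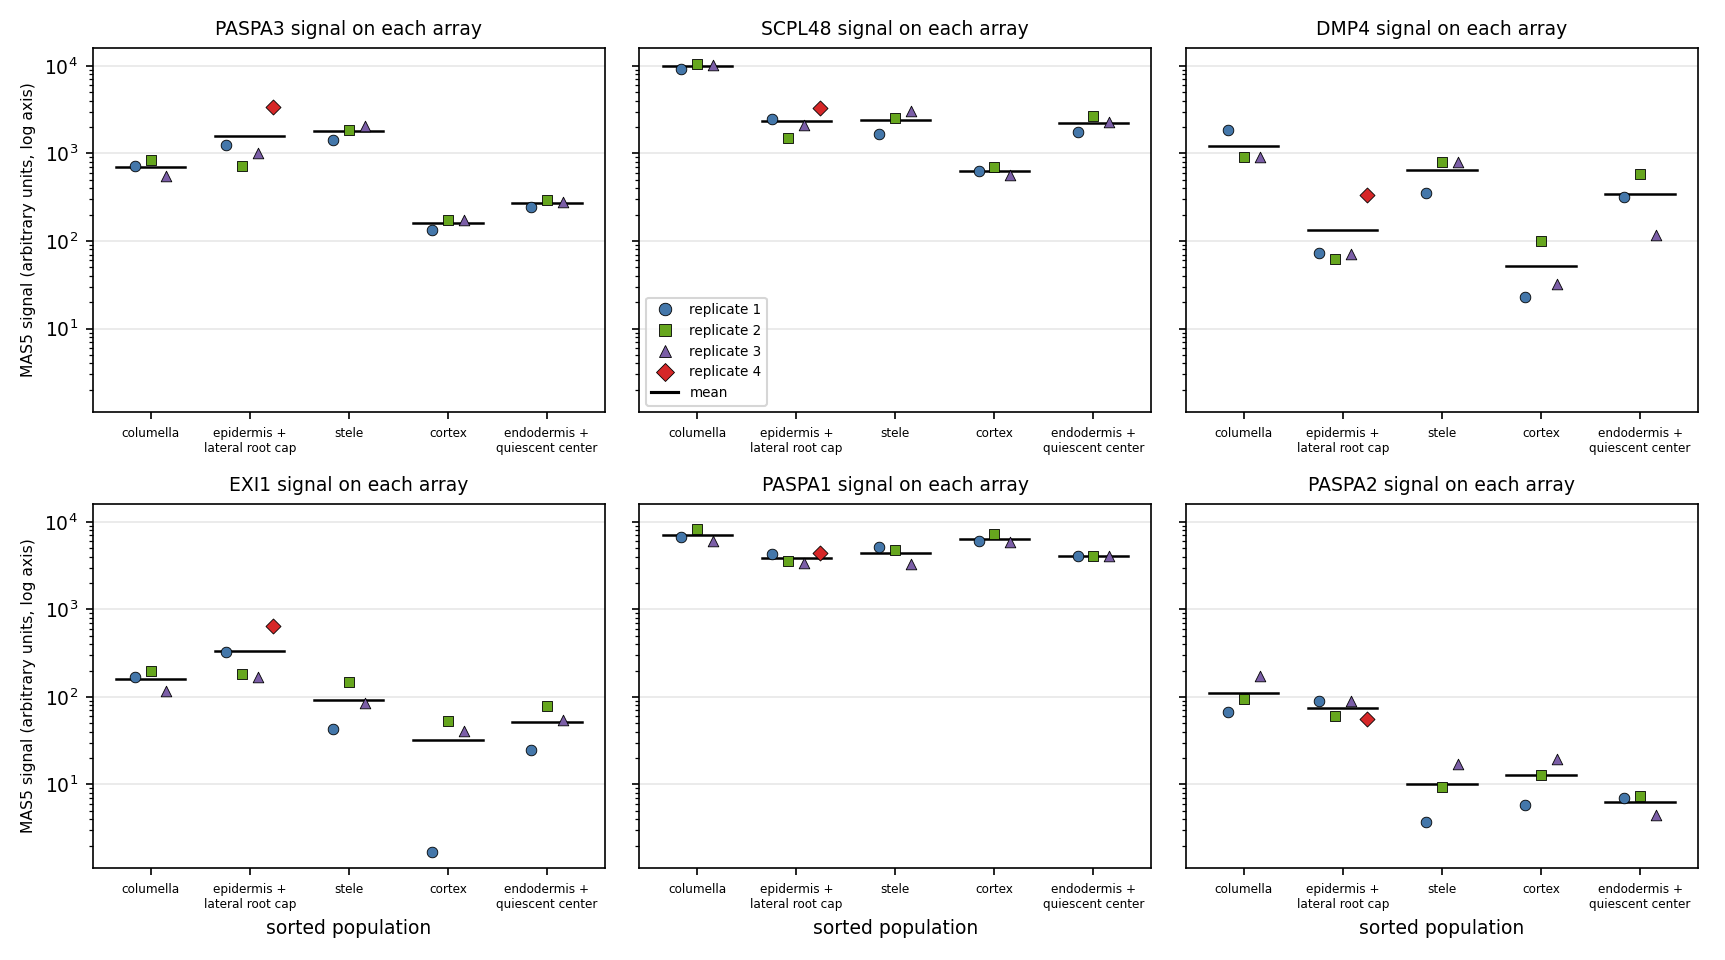
Signals of PASPA3, of 3 other listed cell death genes (SCPL48, DMP4, EXI1) and of 2 relatives of PASPA3 (PASPA1, PASPA2) on each array, on a common log axis, by population; symbols are replicates and lines are means (n = 4 in epidermis, n = 3 elsewhere). SCPL48 and DMP4 had their highest means in columella, EXI1 in epidermis and PASPA3 in stele, and PASPA2 was low outside columella and epidermis.

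Vacuolar processing enzymes are proteases that activate other vacuolar proteins and act in several forms of plant cell death. Of the 7 listed aspartic and processing proteases, PASPA1 to PASPA3 included, all were named, and 6 were tested and passed the F test, against 82.1% of all probe sets. Among the 4 processing enzymes, 3 passed the filter on low signals, as 16224 of all 22810 probe sets did, and passed that test. GAMMA-VPE (AT4G32940) was highest in cortex, where PASPA3 was lowest, at 1415 ± 251.6 in cortex, against 433.5 ± 66.3 in columella, 346.7 ± 72.5 in epidermis (n = 4), 798.0 ± 102.1 in stele and 432.8 ± 164.9 in endodermis (SD, n = 3 otherwise). It exceeded stele by 0.81 (adjusted p = 0.026), and that call was lost without cortex replicate 1 or 3 or stele replicate 1 or 3 (adjusted p = 0.068 to 0.087). BETA-VPE (AT1G62710) was lowest in epidermis, at 12.7 to 25.3, against 116.5 to 128.3 in stele (stele minus epidermis 2.19, adjusted p = 4.6e-07). It was at 108.8 to 135.1 in columella, 95.9 to 125.4 in endodermis and 47.8 to 64.6 in cortex. Stele minus columella (0.027, adjusted p = 0.94) and stele minus endodermis (0.19, adjusted p = 0.58) did not pass. ALPHA-VPE (AT2G25940) was at 88.9 to 111.9 in stele and at most 60.96 elsewhere. In stele it exceeded epidermis by 1.45 (adjusted p = 0.0094), and its difference to endodermis, the next population, did not pass (0.93, adjusted p = 0.11) but did after quantile normalization (1.17, adjusted p = 0.033), with the pseudocount at the 40th percentile (0.68, adjusted p = 0.038) and with the replicate block (0.93, adjusted p = 0.039). DELTA-VPE did not pass the filter and was at 31.6 or less on all arrays.

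Among polygalacturonases, RCPG was the 1 gene of the 5 named, out of 10 listed, that passed the filter. Of all 22810 probe sets, 64 of them untested controls, 16224 passed it. Without the filter PGX3 also passed the F test (adjusted p = 0.020). Listed polygalacturonases that the annotation did not name have no values here. PGX2 and PGX3, which act in cell expansion, PGLR, and ADPG1, which acts in organ separation, were at most 55.4, 74.7, 36.5 and 26.2 on any array. Of the list on walls and separation of root cap cells, RCPG was the 1 gene of 6 that the annotation named. Of 10 listed regulators of the root cap, 2 were named, and both passed the F test, which 82.1% of all probe sets passed. ACR4 (AT3G59420), a receptor kinase of the outer layers and the root cap, was at 126.9 to 244.0 in columella, 47.0 to 73.0 in epidermis, 4.41 to 6.62 in stele, 2.52 to 5.37 in cortex and 6.33 to 33.5 in endodermis. It was higher in columella than in epidermis by 1.29 (SE 0.32, adjusted p = 0.0037). CLE40 (AT5G12990), a peptide gene that acts through ACR4 on columella stem cells, was at 69.6 to 76.0 in columella, 11.2 to 19.8 in epidermis, 10.4 to 25.9 in stele, 10.4 to 34.7 in cortex and 44.0 to 59.7 in endodermis. It exceeded epidermis in columella by 1.73 (adjusted p = 0.00015), and columella minus endodermis did not pass (0.47, adjusted p = 0.25) but did after quantile normalization (0.81, adjusted p = 0.031). The annotation named none of the NAC regulators SMB, BRN1, BRN2 and FEZ, so they have no values here.

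More probe sets followed RCPG closely than followed PASPA3. Likeness was measured by Pearson's r of log2 values over the 16 arrays, which share populations and scaling, so r is a description. Of 16223 other probe sets, 113 reached r of 0.9 with RCPG and none with PASPA3, and 420 and 25 reached 0.8. The 8 single-gene probe sets most like RCPG were AT4G27400 (r = 0.979), AT1G50060 (r = 0.967), scpl25 (AT3G02110, a serine carboxypeptidase-like gene, r = 0.959), CHX20 (AT3G53720, a cation/H+ exchanger gene, r = 0.958), AT1G52070, AT5G54370, AT1G14820 and AT1G48070 (r = 0.951 to 0.956). Of these 8, 7 showed the 7 calls of RCPG counted above, against 1.39% of all probe sets. Those 7 calls leave out that between stele and endodermis. AT4G27400 was at 7374 ± 72.3 in columella (SD, n = 3), 2678 ± 1220 in epidermis (SD, n = 4), 85.7 ± 30.9 in stele, 150.4 ± 44.7 in cortex and 326.6 ± 122.0 in endodermis (SD, n = 3 each). CHX20 was at 366.1 to 516.7 in columella, 149.5 to 286.8 in epidermis and at most 75.3 on the other arrays. In endodermis all 8 were highest in replicate 3, as RCPG was, against 30.1% of all probe sets tested. In epidermis 5 of the 8 were highest in replicate 4, against 35.7% of all. The 8 were picked for likeness to RCPG on these same arrays. Shared calls and a shared high array were thus partly built into the choice, and these counts are a description.

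The 8 most like PASPA3 were AT5G18420 (r = 0.893), AT1G70550 (r = 0.885), AT3G47400 (r = 0.884), AT4G22850 (r = 0.858), HMT-1 (AT3G25900, a homocysteine methyltransferase gene, r = 0.843), AT1G43040, which RefSeq lists as SAUR58 of the small auxin upregulated RNAs (r = 0.841), IQD30 (AT1G18840, r = 0.825) and AT1G08280, listed as the glycosyltransferase gene GALT29A (r = 0.821). Of these, 3 showed all 6 calls of PASPA3 over cortex and endodermis, against 0.672% of all probe sets. The 8 were picked for likeness to PASPA3 on these same arrays, so shared calls were partly built into the choice. AT3G47400 had signals of 1760 to 2145 in columella, 460.7 to 2217 in epidermis, 1410 to 2161 in stele, 109.5 to 136.4 in cortex and 201.5 to 221.1 in endodermis. HMT-1 was at 3555 ± 603.6 in stele (SD, n = 3), and at 1754 ± 616.6 in epidermis (SD, n = 4) and 1085 ± 406.3 in columella (SD, n = 3). The first of them, AT5G18420, varied little, with means of 647.1 to 1016, so a high r did not mean a change of like size. Without epidermis replicate 4, 3 probe sets reached r of 0.9 with PASPA3 and 143 with RCPG. Without it, 89 reached 0.8 with PASPA3, against 25 with all arrays, and 562 with RCPG, against 420.

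**Figure D4:**
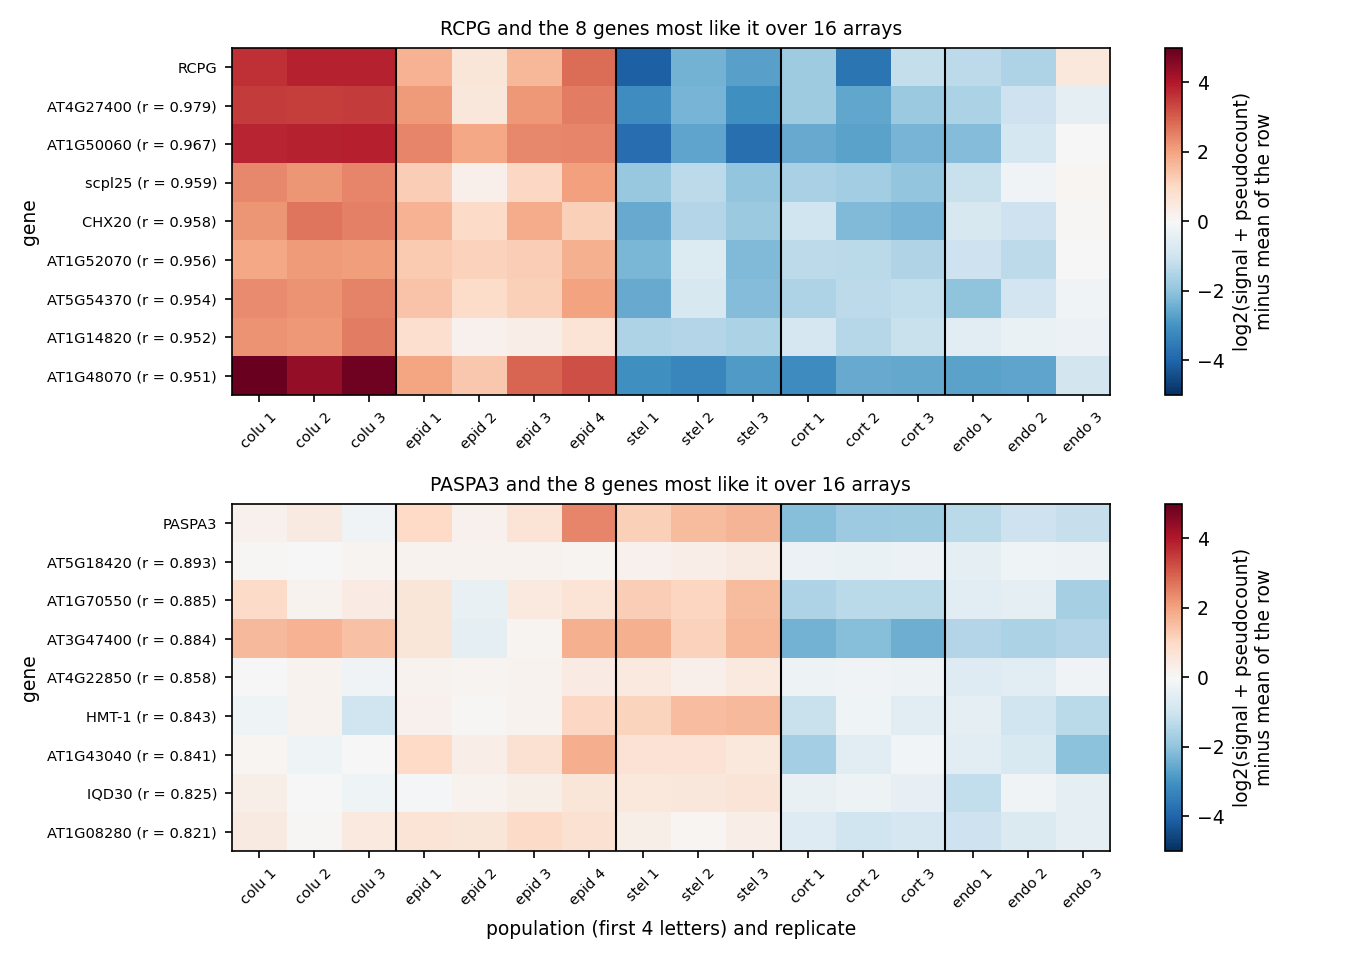
Log2(signal + pseudocount) minus the mean of each row, for RCPG (top) and PASPA3 (bottom) with the 8 genes most like each, over 16 arrays grouped by population (n = 4 arrays in epidermis, n = 3 elsewhere); red is above and blue below the mean of the row. The RCPG group was high in columella and epidermis and low elsewhere, and endodermis replicate 3 was the least low of its population; the PASPA3 group was low in cortex and endodermis, with smaller changes in most rows.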

How the data were processed

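The deposited table holds MAS5 signals, intensity values on a linear scale that the authors made with the MAS5 algorithm, per the submitters' processing notes. Their 2% trimmed means were 250 on each 1-colour array, which shows that each was scaled to that value. The MAS5 version, a stated target and scan dates are not given in the sources used here. It has 22810 probe sets, 64 of them controls, and 0 of 120 pairs of columns were identical. Column names are sample labels, and groups came from sample titles. Whether replicates were grown separately is not stated in the labels. The p-values therefore cover only the variation among these samples, which may be technical.

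Signals entered as log2(signal + 10.17). A probe set was tested if 3 or more arrays reached 38.03, the table's 40th percentile (16224 did). The 16 arrays entered 1 linear model with a mean for each population (limma 3.58.1, R 4.3.3). It had 11 residual degrees of freedom, and variances were moderated by eBayes with trend. Tests were 2-sided, with Benjamini-Hochberg adjustment over all tested probe sets of each contrast and a threshold of 0.05. The script was tested on simulated data.

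Probe sets were named through the array's annotation (13513 with 1 gene, 503 with several, 8794 with none) and RefSeq's Arabidopsis gene table. RCPG, PASPA1 to PASPA3, SCPL48, DMP4, EXI1, ACR4, PGX2, PGX3 and PGLR are common names given to loci. Named genes were both members, the members of the gene lists and the 8 single-gene probe sets with the highest Pearson correlation with each member. The members and lists were chosen with earlier results of these data known. Alternatives were quantile normalization, other pseudocounts (1 and the 40th percentile), other filters (none and the 60th percentile), no trend, weights per array, a block of replicate numbers and leaving out each array. For the list genes they were added after seeing the data. Figures used Python 3.11.15 and matplotlib 3.10.9.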

Additional observations from a re-analysis of the deposited data

Results flagged for a closer look

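In 5 of 45 named genes, 1 of the 4 epidermis arrays lay apart from the others by Dixon's test, which chance does in about 1 of 20 groups. Epidermis replicate 4 was the array for DMP4, at 333.0 against 62.0 to 72.2, for the cortex marker AED3 (AT1G09750), at 61.8 against 20.1 to 26.8, and for HMT-1, at 2673 against 1351 to 1518. Epidermis replicate 2 was the array for AT1G50060, at 3497 against 4787 to 4956, and for ADPG1, at 7.96 against 0.72 to 1.33, all below the filter. Neither member passed this test: the gap was 0.663 of the range for RCPG and 0.806 for PASPA3, under the critical value.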

How the results depend on the processing

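Of 22 results on RCPG and PASPA3, 17 kept their direction and side of the threshold under all 24 alternatives run for each, and none was reversed. For RCPG, stele minus endodermis ran from -2.66 to -1.63 with single arrays left out. Cortex minus endodermis passed with array weights (-1.74) and the replicate block (-1.43), and ran from -1.94 to -0.72 with arrays left out. For PASPA3, columella minus epidermis did not pass without a filter or without a trend (-0.92 in both) or with the block (-0.47), and ran from -1.21 to -0.47 with arrays left out. Epidermis minus stele passed with array weights (-0.75) and with the block (-0.87), and ran from -0.87 to -0.13. Cortex minus endodermis passed with array weights (-0.69) and the block (-0.73), and ran from -0.81 to -0.62. The block of replicate numbers changed no other call. The labels do not say whether arrays of the same number belong together. Deviations of 30 pairs of same-numbered arrays correlated at -0.27 to 0.24 (median 0.004), 6 of them over 0.1. Those of 72 pairs with different numbers correlated at -0.37 to 0.36 (median 0.003), 19 of them over 0.1. Of 15 arrays, 4 correlated best with an array of their own number. With 3 or 4 arrays per population, these values cannot exclude a pairing. Replicate 4 exists only in epidermis, so the block takes that array out of the differences.

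Among 10 list genes (highest minus next population), 5 changed, with 4 calls lost, 4 calls gained and 4 changes of sign. The calls that changed were those of GAMMA-VPE, ALPHA-VPE and CLE40 given above. The changes of sign were in PASPA1 and BETA-VPE and involved no call. PASPA1 (columella minus cortex) was -0.0086 without columella replicate 2 (up to 0.22 with others left out). BETA-VPE (stele minus columella) was -0.037 after quantile normalization, -0.039 without columella replicate 1 and -0.0044 without stele replicate 2 (up to 0.11 with others left out). With no filter 2 of the named polygalacturonases passed the F test (PGX3 with RCPG) in place of 1, and with the 60th percentile 1 of the root cap regulators in place of 2. Of the 8 genes most like RCPG, 3 were among the top 8 by Spearman's rho and 5 without epidermis replicate 4. Of those most like PASPA3, 4 were so after quantile normalization and 3 without epidermis replicate 4. The cause of these changes was not tested.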

Other observations

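The genes beside RCPG and PASPA3 in RefSeq's order had the following levels. On 1 side of RCPG, AT1G65560 was at 224.5 ± 51.6 in columella (SD, n = 3), 107.9 ± 11.1 in epidermis (SD, n = 4), 140.9 ± 41.4 in stele, 76.0 ± 32.3 in cortex and 125.8 ± 22.5 in endodermis (SD, n = 3 each). On the other side, beyond a long noncoding RNA gene with no named probe set, FRA3 (AT1G65580) had means of 522.0 to 613.4 in the 5 populations. Beside PASPA3, WRKY42 (AT4G04450), a transcription factor gene, and AT4G04480 did not pass the filter, with means of at most 5.84 and 28.3 in any population.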
